A study of Caenorhabditis elegans with 53 samples.

Results

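miR-243 is a Caenorhabditis elegans microRNA, and Y47H10A.5 is the protein-coding gene known as the target on which it starts secondary small RNA synthesis. The members were chosen by name: the rows of the 2 mature strands, miR-243-3p (MIMAT0000299) and miR-243-5p (MIMAT0015117), the 22G-RNA row of Y47H10A.5 (WBGene00012961, listed in the WAGO class), and the mRNA row of that gene. These 4 measurements stand among 439 microRNA strands and 33142 rows of 22G-RNAs in the small RNA tables and 30122 genes in the mRNA table. Each of the 8 small RNA tables listed 1 row per strand and 1 row of 22G-RNAs for the gene.

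MicroRNAs are cut from hairpin precursors by Dicer (DCR-1), and in C. elegans most are loaded into the Argonautes ALG-1 and ALG-2, which repress messages with partial pairing. RDE-1 is the Argonaute that carries primary siRNAs in RNA interference (RNAi); miR-243 is known as a microRNA that is also loaded into RDE-1 and guides it to the Y47H10A.5 message. RNA-dependent RNA polymerases then copy the targeted message into 22G-RNAs, short antisense RNAs that start with a 5′ triphosphate, usually with G, and are bound by the worm-specific Argonautes (WAGOs). A microRNA that works through RDE-1 thus leaves a trace that most microRNAs do not: 22G-RNAs on its target.

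The study holds 47 small RNA and 6 mRNA libraries of whole gravid adult hermaphrodites, apart from 2 libraries of mixed-stage embryos, grown at 20 °C for 72 to 75 h from the first larval stage. Small RNA groups were wild type (N2, n = 3) and rde-1(ne219) (strain WM27, n = 3); input and co-immunoprecipitate (co-IP) of GFP::RDE-1 from strain USC1080, whose cmp133 allele puts gfp, loxP and 3xFLAG before rde-1, with no RNAi treatment in the labels (n = 2 each); the rde-1(cmp133[(gfp::3xFLAG)::rde-1]) strain fed the empty vector L4440 or dcr-1 double-stranded RNA (n = 2 each); and input and co-IP of the same RDE-1 tag and of alg-1(ap423[3xflag::gfp::alg-1]) under nrfl-1 RNAi (n = 3 each). Input and co-IP of alg-1(ap423) and of alg-2(tor139[GFP::3xFLAG::alg-2b]) were each sequenced on L4440 and on rde-1 RNAi (n = 2 each), and the mRNA libraries were wild type and rde-1(ram40) (n = 3 each). The column names of the dcr-1 table also name RDE-4::FLAG, and those of the ALG-1 nrfl-1 table name an HA tag, which the labels do not. The labels do not say whether the libraries of a group came from separate cultures, so p-values measure the spread between these libraries, which may be technical.

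Values are RPM, read counts scaled to library size, for small RNAs and normalized counts for mRNAs, and 1 RPM stood for an estimated 10.8 to 31.8 reads (median 17.8). Samples of wild type, rde-1(ne219) and GFP::RDE-1 without RNAi are labelled as treated with a pyrophosphohydrolase, which lets triphosphorylated 22G-RNAs be ligated; their wild-type, mutant and input libraries held 52.9% to 59.0% of the listed RPM in 22G-RNA rows. The inputs of the ALG-1, ALG-2 and nrfl-1 RNAi experiments held 0.766% to 1.56%, so a low value there does not compare with a high value in the former. Such shares of 22G-RNA rows leave out rows listed as unclassified and count a gene once in each class that lists it. The 22G-RNA total used for rescaling included the unclassified rows. The adult libraries set against embryos were the wild-type libraries again, with 0 of 25921 shared rows differing in each of the 3. As checks of the labels, rde-1 mRNA was at 1504 ± 115 normalized counts in wild type and 0.923 ± 0.129 in rde-1(ram40) (SD, n = 3 each), and siRNAs of dcr-1 were at 56.9 and 71.2 RPM on L4440 and at 16972 and 16749 RPM on dcr-1 RNAi. The GFP::RDE-1 libraries with no RNAi label nevertheless listed exogenous siRNAs of nrfl-1. They were at 359 and 385 RPM in the inputs and at 40064 and 67322 RPM in the co-IPs. Exogenous siRNAs of oma-1 were at 1208 and 2131 RPM in these co-IPs. In the GFP::RDE-1 libraries labelled nrfl-1 RNAi, a row of nrfl-1 siRNAs under another class name had 551 to 600 RPM in inputs. Its co-IP values were 29654 to 34525 RPM. A missing RNAi label thus cannot be read as untreated animals, and whether nrfl-1 RNAi was used there was not tested. In the adult mRNA libraries the oocyte mRNA rme-2 was between 12283 and 17610 normalized counts and the sperm mRNAs msp-3, msp-10 and msp-19 were at 22.9 or less.

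In rde-1(ne219) adults the 22G-RNAs of Y47H10A.5 were almost gone while both strands of miR-243 were more abundant. The wild-type libraries had 893, 870 and 926 RPM of these 22G-RNAs. The mutant libraries had 4.83, 2.67 and 1.63 RPM, an estimated 69, 56 and 24 reads. The groups did not overlap, and the means differed 295-fold. On the scale of log2(RPM + 1) the 22G-RNAs fell by 7.87 (SE 0.21, adjusted p = 3.16e-10 by limma). That was the lowest log2 fold change among all 13650 rows tested, of which 52.4% were called, and the median of all rows was 0.18. In whole animals, fewer cells that make a small RNA and less of it per cell cannot be told apart.

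miR-243-3p, the strand known to be bound by RDE-1, had 23.1, 22.4 and 18.8 RPM in wild type. It had 69.2, 55.0 and 69.6 RPM in rde-1(ne219). Every mutant library was above every wild-type library, and the strand rose by 1.54 on the log2 scale (SE 0.11, adjusted p = 6.88e-07 by limma). miR-243-5p, the opposite arm of the hairpin, had 2.32, 1.78 and 2.55 RPM in wild type and 11.1, 9.38 and 7.79 RPM in the mutant. It rose by 1.69 (SE 0.15, adjusted p = 4.28e-06 by limma). The 2 strands had the second and the third highest log2 fold change of 189 microRNA rows, of which 28.0% were called; miR-789-5p alone was higher, with 1.79. As a share of all microRNA RPM, miR-243-3p went from 0.0103% ± 0.0010 in wild type to 0.0346% ± 0.0041 in the mutant (SD, n = 3 each; two-sided exact permutation p = 0.1, the smallest that 3 against 3 allows).

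The balance between the microRNA and the 22G-RNAs thus moved in both terms. Wild-type adults had 38.6 to 49.3 RPM of Y47H10A.5 22G-RNAs for each RPM of miR-243-3p, and rde-1(ne219) had 0.0234 to 0.0698. The groups did not overlap (exact permutation p = 0.1, two-sided). The share of the 3p strand in both strands was 90.5% ± 2.3 in wild type and 87.2% ± 2.4 in the mutant, and those ranges overlapped.

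**Figure D1:**
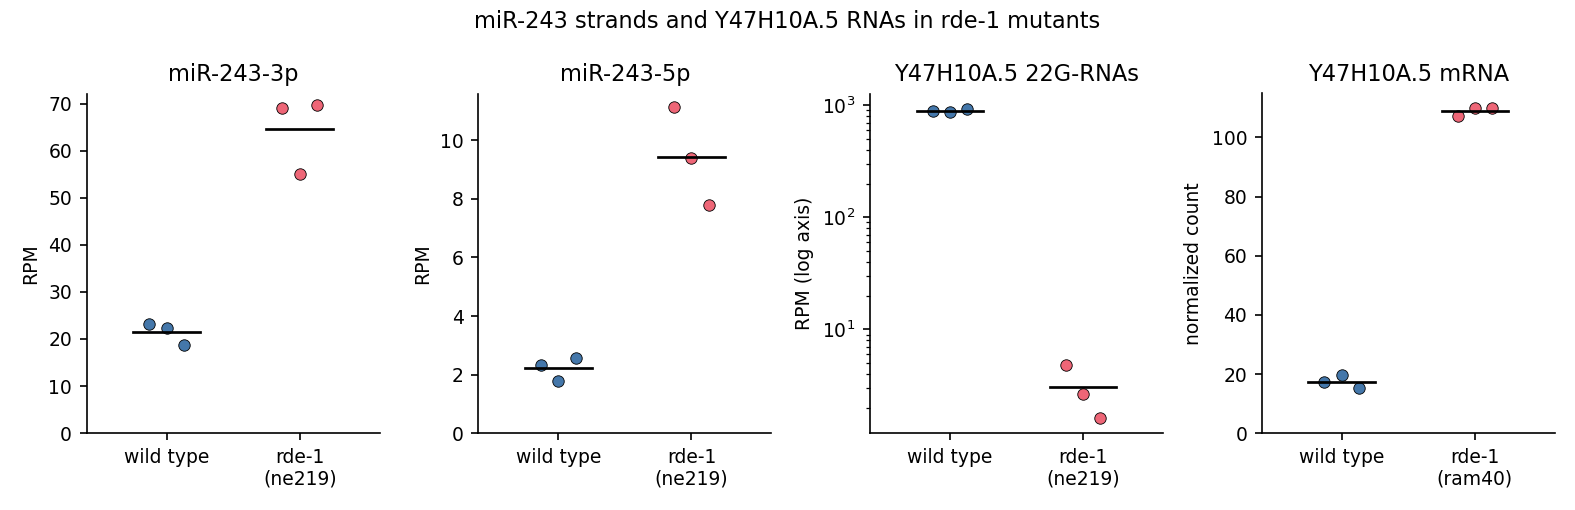
Each point is a library and each line a group mean; the first 3 panels show RPM in wild type and rde-1(ne219) (the 22G-RNA panel on a log axis), and the fourth shows normalized counts of Y47H10A.5 mRNA in wild type and rde-1(ram40). Both strands of miR-243 and the mRNA are higher in every mutant library, and the 22G-RNAs are lower in every one.

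The Y47H10A.5 message itself was measured in another allele, rde-1(ram40), and in other libraries. Wild type had 17.2, 19.5 and 15.3 normalized counts of the mRNA. The mutant had 107, 109.8 and 110.1. The groups lay far apart, with 6.29-fold between their means and a log2 fold change of 2.59 (SE 0.20, adjusted p = 9.05e-05 by limma). Of 11331 genes tested 0.362% were called (41 genes, 9 of them higher), and Y47H10A.5 had the ninth highest log2 fold change. Without wild-type replicate 1 or 2 the calls numbered 14 or 18, and the value for Y47H10A.5 was 2.51 to 2.67 with any 1 library left out. Of 6 yolk protein mRNAs, vit-1 and vit-2 did not overlap between the groups and vit-3 to vit-6 did, and their part in the result was not tested. The share of all genes without overlap is not given here, so this count says nothing particular about yolk mRNAs. The mRNA of vit-2 was at 33919 to 54154 normalized counts in wild type and at 23507 to 26489 in the mutant. Neither the 22G-RNAs in ram40 nor the mRNA in ne219 was analysed here.

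Genes that lie beside Y47H10A.5 in the RefSeq gene table (assembly WBcel235) were also read, a choice made after values were seen. The nearest with enough reads was rrf-2, which encodes an RNA-dependent RNA polymerase. Its mRNA was at 96.4 ± 9.2 normalized counts in wild type and 109 ± 13 in rde-1(ram40) (limma adjusted p = 0.837). Its 22G-RNAs were at 85.4 ± 2.6 RPM in wild type and 93.0 ± 4.5 RPM in rde-1(ne219) (SD, n = 3 each; limma adjusted p = 0.141). Y47H10A.3, Y47H10A.4 and M01G12.14 were below the level tested on both scales.

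The rest of the RNAi machinery was read from a list of 34 genes for Argonautes, Dicer and its partners, RNA-dependent RNA polymerases and mutator proteins, 32 of which matched an ID. At the mRNA level in rde-1(ram40), 0 of the 32 were higher and 1 was lower, rde-1 itself. Their median log2 fold change was 0.04, against 0.02 over all genes. The 22G-RNAs of these 32 genes in rde-1(ne219) gave 35 rows, of which 25 were higher and 0 lower, with a median of 0.35. The genes wago-1, hrde-1 and nrde-3 gave a row per class with the same values, so wago-1 and hrde-1 count more than once among the higher rows. Over all 22G-RNA rows 60.9% were called and the median was 0.26. Of all 13650 rows of any class, 5392 were called higher and 1760 lower. The 22G-RNAs of the Argonaute genes alg-1 (1.49, from 6.05 ± 0.67 to 18.8 ± 2.7 RPM) and sago-1 (1.11, from 1.5 ± 0.30 to 4.39 ± 0.30 RPM) had the highest values in the list, followed by ain-1 (0.71, from 20.4 ± 0.3 to 34.1 ± 1.7 RPM), which encodes a partner of the microRNA Argonautes (SD, n = 3 each). Y47H10A.5 thus moved opposite to the listed rows that were called.

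Immunoprecipitates of RDE-1 held far more miR-243-3p than their inputs. With no RNAi in the labels, the inputs had 22.6 and 26.6 RPM of the strand. The co-IPs had 1545 and 3729 RPM. Both co-IPs were above both inputs, although they differed from each other by more than the inputs did, and the strand was 107-fold higher by the means (log2 fold change 6.56, SE 0.41, adjusted p = 5.22e-05 by limma). Without co-IP replicate 1 the log2 fold change was 7.19, and without co-IP replicate 2 it was 5.92. In this comparison 94.2% of 9046 rows were called, most of them lower, and the median log2 fold change was -1.87. Among microRNA rows 79.2% were called. Of 153 microRNA strands with at least 10 RPM in either group, miR-243-3p had the fifth highest value, after miR-789-2-5p (7.79), miR-84-3p (7.69), miR-232-5p (7.66) and miR-240-5p (7.54).

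The nrfl-1 RNAi experiment, made in other libraries, also had more of the strand in co-IPs. Inputs had 66.1, 85.3 and 80.1 RPM of miR-243-3p. The co-IPs had 13354, 9688 and 6274 RPM. The groups were 127-fold apart by their means (log2 fold change 6.91, SE 0.31, adjusted p = 7.73e-08 by limma; 88.2% of rows called, median of all rows -1.39). Of 244 microRNA rows tested, only that of miR-789-2-5p was higher (8.63). How the sizes of the 2 experiments compare hung on the scaling: rescaled to the microRNA total the log2 fold change was 5.04 with no RNAi label and 7.09 on nrfl-1 RNAi, and rescaled to the total without microRNAs it was 7.27 and 4.53. By level, miR-243-3p rose from rank 87 to 90 among the microRNA rows of the inputs to rank 19 to 25 in these co-IPs.

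miR-243-5p was also higher in RDE-1 co-IPs, by less and from a few reads. It had 0.53 and 0.91 RPM in the inputs with no RNAi label, an estimated 11 and 20 reads, and 15.3 and 19.4 RPM in the co-IPs (log2 fold change 3.41, SE 0.21, adjusted p = 5.23e-05 by limma). Under nrfl-1 RNAi it had 0.93, 3.07 and 1.68 RPM in the inputs and 21.6, 33.4 and 13.6 RPM in the co-IPs (3.02, SE 0.40, adjusted p = 4.95e-05 by limma). In neither experiment did the groups overlap. Rescaled to the microRNA total the gain with no RNAi label was 2.33, and rescaled to the total without microRNAs that under nrfl-1 RNAi was 1.09. The 3p strand made up 96.7% to 97.7% of both strands in the inputs and 99.0% to 99.5% in the co-IPs with no RNAi label. Under nrfl-1 RNAi those shares were 96.5% to 98.6% and 99.7% to 99.8%, again with no overlap.

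The libraries with no RNAi label also had a row listed as the precursor of mir-243. The labels give small RNAs of 16 to 30 nt. The row thus holds short reads assigned to the precursor, and whole hairpins were not measured. It had 5.06 and 4.61 RPM in the inputs and 14.7 and 20.9 RPM in the co-IPs (log2 fold change 1.67, SE 0.20, adjusted p = 4.55e-04 by limma, with 94.2% of all rows called). That was rank 28 of 110 precursor rows, far below the rank of the mature 3p strand among microRNAs. A 22G-RNA row of mir-243 itself was at 0 RPM in the 3 wild-type libraries and at most 0.03 RPM in rde-1(ne219).

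The 22G-RNAs of the target were lower in RDE-1 co-IPs than in inputs with no RNAi label. They were at 570 and 561 RPM in the inputs and at 82.8 and 87.7 RPM in the co-IPs (log2 fold change -2.72, SE 0.11, adjusted p = 4.98e-05 by limma). Of 2077 rows of WAGO class 22G-RNAs 99.9% were called and 0 were higher, and Y47H10A.5 had the 39th lowest value. Rescaled to the 22G-RNA total of each library, its row still fell by 0.54 (limma adjusted p = 0.0415). Under nrfl-1 RNAi it had 2.95, 3.45 and 3.62 RPM in the inputs and 1.00, 1.85 and 1.87 RPM in the co-IPs. That difference was -0.77 in RPM (limma adjusted p = 0.0169) but +0.97 once rescaled to the 22G-RNA total (limma adjusted p = 0.0220). The row was thus called in either direction, depending on the scaling. The call in RPM was lost without co-IP replicate 1 (-0.60, limma adjusted p = 0.0522), input replicate 2 (-0.75, adjusted p = 0.0691) or input replicate 3 (-0.72, adjusted p = 0.0757).

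**Figure D2:**
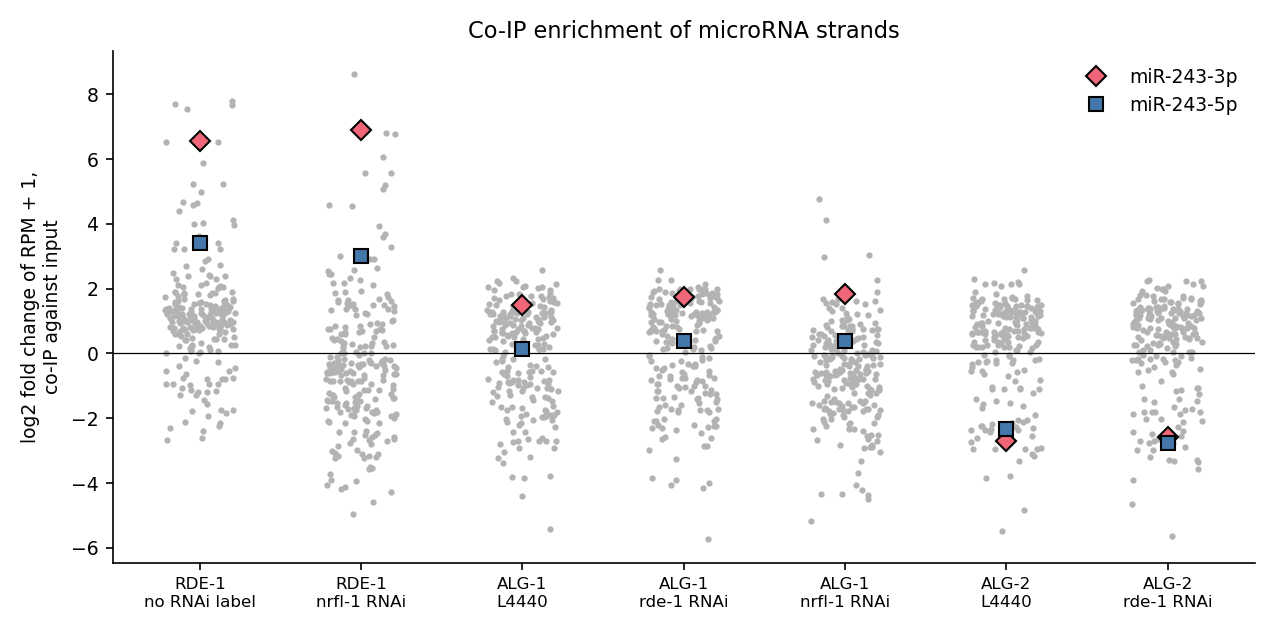
Log2 fold change of RPM + 1 in co-IP against input for every microRNA row tested (grey points, spread sideways at random), with miR-243-3p as diamonds and miR-243-5p as squares, in 7 Argonaute experiments. The 3p strand stands at 6.56 and 6.91 in RDE-1, between 1.49 and 1.83 in ALG-1, and at -2.70 and -2.56 in ALG-2.

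In co-IPs of ALG-1 the strand was higher than in inputs. On L4440, miR-243-3p was at 44.6 and 44.3 RPM in the ALG-1 inputs and at 135 and 119 RPM in the co-IPs (log2 fold change 1.49, SE 0.29, adjusted p = 2.07e-04 by limma; 98.5% of rows called, 82.4% of microRNA rows). On rde-1 RNAi it was at 114 and 103 RPM in the inputs and at 362 and 365 RPM in the co-IPs (1.74, SE 0.29, adjusted p = 5.05e-05 by limma; 98.5% of rows called). Under nrfl-1 RNAi it was at 114, 110.2 and 130.3 RPM in the inputs and at 488, 399 and 387 RPM in the co-IPs (1.83, SE 0.25, adjusted p = 7.46e-07 by limma; 97.5% of rows called). Each co-IP library was above each input library in all 3 experiments. MicroRNA rows took 86.8% to 87.9% of the listed RPM in the L4440 inputs and 99.7% to 99.8% in the co-IPs. Rescaled to the microRNA total, the gain was 0.41 on L4440 (limma adjusted p = 0.101), 0.60 on rde-1 RNAi (adjusted p = 0.0241) and 1.55 under nrfl-1 RNAi (adjusted p = 7.51e-07). In the same order it was 6.28, 5.35 and 5.10 rescaled to the total without microRNAs, and 4.17, 4.42 and 3.94 centred on the library median.

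In co-IPs of ALG-2 the strand was lower than in inputs in RPM; the difference between ALG-1 and ALG-2 was not tested. On L4440 miR-243-3p was at 38.0 and 35.9 RPM in the inputs and at 4.51 and 5.18 RPM in the co-IPs (log2 fold change -2.70, SE 0.21, adjusted p = 3.27e-10 by limma; 98.7% of rows called, median of all rows -2.55). On rde-1 RNAi it was at 85.1 and 102 RPM in the inputs and at 14.1 and 15.8 RPM in the co-IPs (-2.56, SE 0.21, adjusted p = 7.08e-10 by limma; 98.7% of rows called, median -2.55). The groups did not overlap, and the fall was about as deep as that of the median row, so that centring each library on its median left -0.00059 and 0.13. Against other microRNAs, which mostly rose, the strand was low: it had 0.0101% to 0.0116% of the microRNA RPM in the L4440 inputs and 4.67e-04% to 5.28e-04% in the co-IPs. Rescaled to the total without microRNAs, in contrast, the sign turned to 2.40 on L4440 and 1.92 on rde-1 RNAi.

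The 5p strand was not called in RPM in any ALG-1 experiment and fell in RPM with ALG-2, where rescaling to the total without microRNAs turned the sign to 1.58 on L4440 and 1.04 on rde-1 RNAi. Its ALG-1 values were 5.66 and 6.03 RPM in the L4440 inputs and 7.58 and 5.57 RPM in the co-IPs (log2 fold change 0.13, SE 0.24, adjusted p = 0.582 by limma), and these overlapped. On rde-1 RNAi they were 15.8 and 12.9 RPM against 20.8 and 17.0 RPM (0.37, SE 0.24, adjusted p = 0.14 by limma), and under nrfl-1 RNAi 5.64 to 8.93 RPM against 8.49 to 10.8 RPM (0.39, SE 0.23, adjusted p = 0.118 by limma). In ALG-2 it went from 6.36 and 10.0 RPM to 0.67 and 0.90 RPM on L4440 (-2.34, SE 0.19, adjusted p = 5.72e-10 by limma), and from 16.7 and 17.7 RPM to 1.63 and 1.73 RPM on rde-1 RNAi (-2.76, SE 0.19, adjusted p = 4.52e-11 by limma). In ALG-1 its direction hung on the scaling: on L4440, rde-1 RNAi and nrfl-1 RNAi it was called higher centred on the library median (2.82, 3.06 and 2.49) and rescaled to the total without microRNAs (4.28, 3.69 and 3.25), while rescaled to the microRNA total it was called lower on L4440 (-0.81) and rde-1 RNAi (-0.70) and was 0.13 under nrfl-1 RNAi (limma adjusted p = 0.567). The share of the 3p strand in both strands was 88.0% to 88.7% in the ALG-1 inputs and 94.7% to 95.5% in the co-IPs on L4440, the same way as in RDE-1. In ALG-2 the mean share was also higher in co-IPs. On L4440 it was 78.2% to 85.6% in the inputs and 85.2% to 87.1% in the co-IPs, which overlapped. On rde-1 RNAi it was 83.6% to 85.2% and 89.6% to 90.2%, with no overlap.

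**Figure D3:**
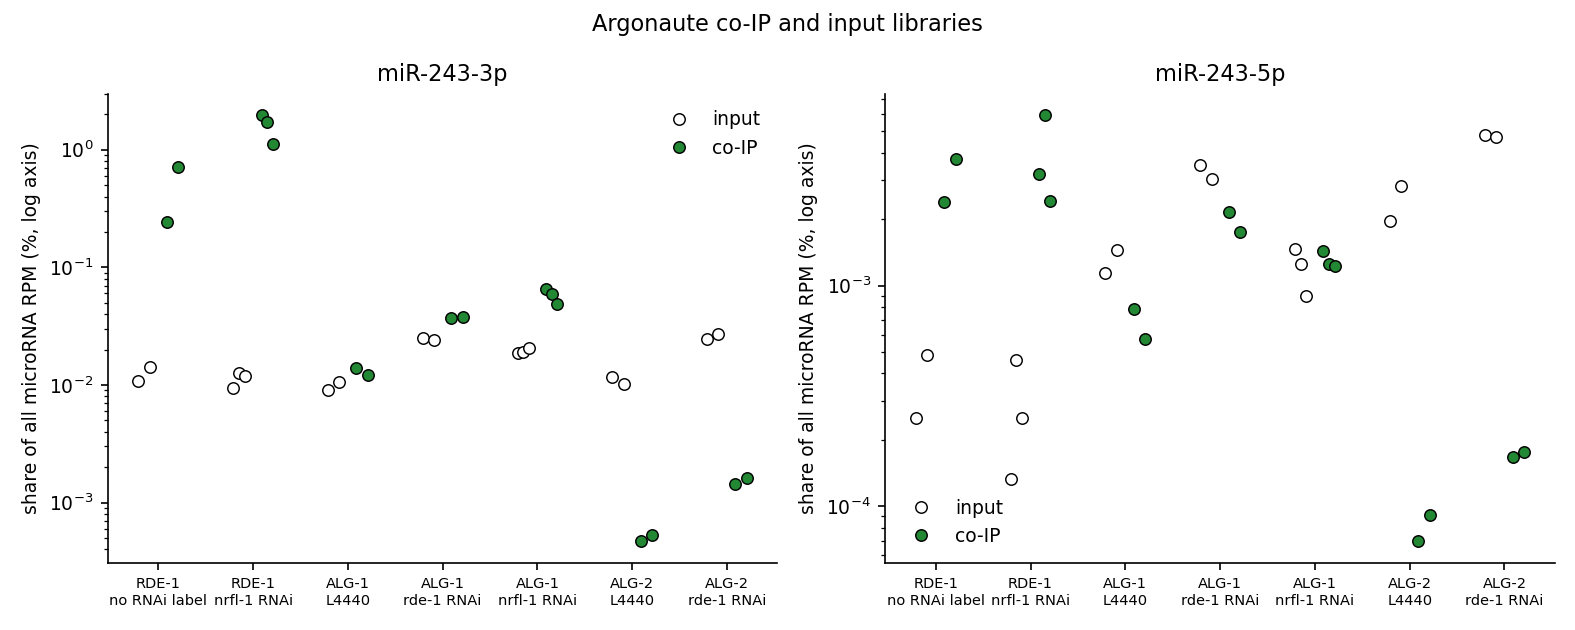
Share of all microRNA RPM, in percent on a log axis, taken by miR-243-3p (left) and miR-243-5p (right) in input (open) and co-IP (filled) libraries of 7 Argonaute experiments; each point is a library. The 3p share reaches 0.241% to 1.98% in the RDE-1 co-IPs and lies at 0.00162% or less in the ALG-2 co-IPs.

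With rde-1 RNAi both strands rose in the inputs of the ALG-2 strain, and in those of the ALG-1 strain they were higher without passing the test. In the ALG-2 strain miR-243-3p went from 38.0 and 35.9 RPM on L4440 to 85.1 and 102 RPM on rde-1 RNAi (log2 fold change 1.31, SE 0.21, adjusted p = 0.00229 by limma). miR-243-5p went from 6.36 and 10.0 RPM to 16.7 and 17.7 RPM (1.02, SE 0.19, adjusted p = 0.0125 by limma). The call for miR-243-3p was lost without L4440 input replicate 2 (1.27, limma adjusted p = 0.0513) or rde-1 RNAi input replicate 2 (1.18, adjusted p = 0.0949). That for miR-243-5p was lost without L4440 input replicate 1 (0.73, limma adjusted p = 0.0909) or rde-1 RNAi input replicate 2 (0.98, adjusted p = 0.108), and also with a pseudocount of 0.1 (adjusted p = 0.999), with no filter (adjusted p = 0.0592) and rescaled to the total without microRNAs (0.74). Of 3213 rows 0.871% were called, 28 rows, so that this pair stood in a small set, with only miR-789-5p (2.04) above them among 218 microRNA rows. In the ALG-1 strain the 3p strand went from 44.6 and 44.3 RPM to 114 and 103 RPM (1.27, SE 0.29) and the 5p strand from 5.66 and 6.03 RPM to 15.8 and 12.9 RPM (1.16, SE 0.24). The libraries again did not overlap, but the calls were missed, with limma adjusted p = 0.122 and 0.0727, where 0.287% of rows were called. Fitted on the 4 input libraries alone, both strands passed (limma adjusted p = 2.02e-08 for 3p and 8.37e-05 for 5p). Both also passed centred (0.0420 and 0.0183, limma adjusted p), without the trend (0.00525 and 0.0353), and without either L4440 co-IP library (0.0389 and 0.0387 for each strand). As a check of the labels, primary siRNAs of rde-1 were at 4.55 to 53.5 RPM in the L4440 libraries and at 628 to 2545 RPM on rde-1 RNAi.

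No difference in enrichment between rde-1 RNAi and L4440 passed the test for either strand. The difference between the enrichment on rde-1 RNAi and that on L4440 was 0.25 for ALG-1 (SE 0.41, adjusted p = 0.897 by limma; 0.344% of rows called) and 0.14 for ALG-2 (SE 0.30, adjusted p = 0.993 by limma; 0.311% of rows called). For miR-243-5p it was 0.24 (SE 0.33, adjusted p = 0.871 by limma) and -0.43 (SE 0.27, adjusted p = 0.843 by limma). With 2 libraries a group these standard errors leave room for differences of either sign. The 22G-RNAs of Y47H10A.5 rested on few reads in these libraries: 2.04 and 3.62 RPM in the ALG-1 L4440 inputs, an estimated 22 and 48 reads, and 1.33 and 0.60 RPM on rde-1 RNAi, 17 and 6 reads (log2 fold change -0.96, SE 0.21, adjusted p = 0.119 by limma). In the ALG-2 inputs they were at 1.57 and 1.84 RPM and at 1.35 and 0.45 RPM and were not tested, being below the level required. Their ratio to miR-243-3p was 0.0457 and 0.0818 in the ALG-1 L4440 inputs and 0.0117 and 0.00584 on rde-1 RNAi (two-sided exact permutation p = 0.333, the smallest that 2 against 2 allows).

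**Figure D4:**
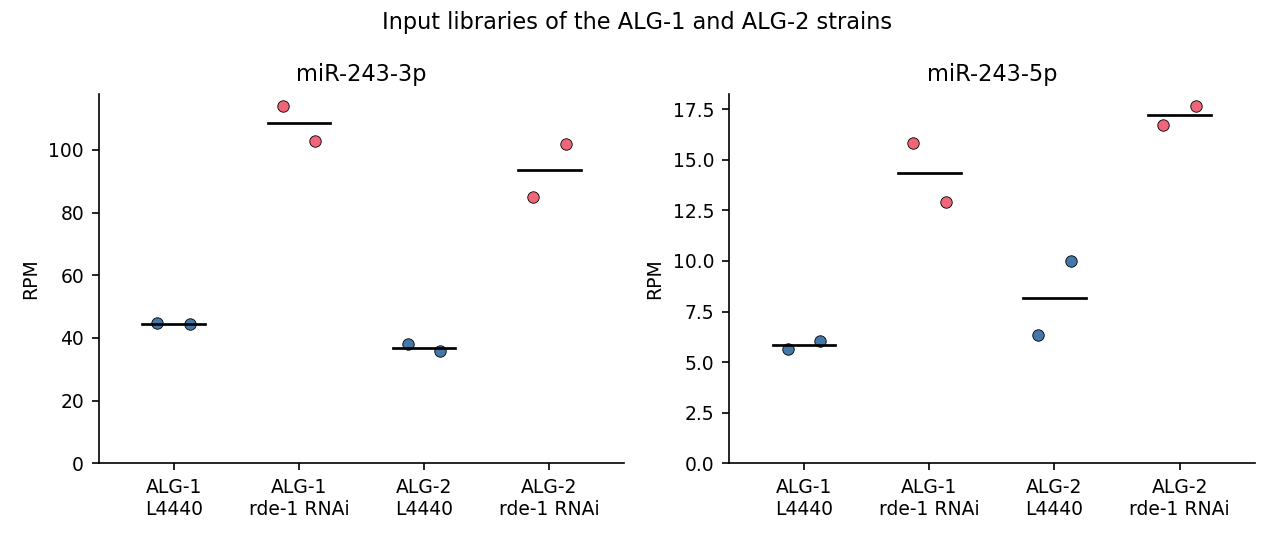
RPM of miR-243-3p (left) and miR-243-5p (right) in the input libraries of the ALG-1 and ALG-2 strains on L4440 and on rde-1 RNAi; points are libraries and lines are means of 2. In both strains the rde-1 RNAi inputs are above the L4440 inputs, 85.1 to 114 RPM against 35.9 to 44.6 RPM for the 3p strand.

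In the ALG-1 co-IPs the 22G-RNAs of Y47H10A.5 had the highest log2 fold change of the 181 WAGO class rows tested on L4440 and on rde-1 RNAi, and the fifth highest of 102 under nrfl-1 RNAi, but the values were low and hung on the scaling. On L4440 they were at 1.43 and 1.08 RPM in the co-IPs against 2.04 and 3.62 RPM in the inputs (log2 fold change -0.74, SE 0.21, adjusted p = 0.00473 by limma), which turned to 2.59 after rescaling to the 22G-RNA total. The call was lost without co-IP replicate 2 (-0.63, limma adjusted p = 0.0508) or input replicate 2 (-0.44, adjusted p = 0.0919). On rde-1 RNAi they were at 0.99 and 1.00 RPM against 1.33 and 0.60 RPM (0.05, SE 0.21, adjusted p = 0.83 by limma). Under nrfl-1 RNAi they were at 0.97, 0.83 and 0.80 RPM against 3.12, 3.10 and 2.84 RPM (-1.11, SE 0.17, adjusted p = 2.67e-06 by limma), or 1.63 after that rescaling. An estimated 11 to 25 reads stood behind each co-IP value.

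With dcr-1 RNAi miR-243-3p fell, and the 22G-RNAs of its target were not lower in RPM. The labels name no pyrophosphohydrolase treatment for either group. 22G-RNA rows nevertheless held 53.2% to 54.8% of the listed RPM on L4440 and 60.9% to 62.6% on dcr-1 RNAi. MicroRNA rows held 43.2% to 44.9% and 32.9% to 34.7%. On L4440 miR-243-3p was at 63.0 and 55.8 RPM, and on dcr-1 RNAi at 25.6 and 30.4 RPM. The groups did not overlap, and the strand fell by 1.06 (SE 0.11, adjusted p = 8.89e-06 by limma), in a comparison in which 21.2% of 7704 rows and 50% of 184 microRNA rows were called. It was the ninth lowest of the microRNA rows, and without the mean-variance trend in the fit the call was lost (adjusted p = 0.0956). miR-243-5p was at 1.31 and 0.80 RPM on L4440 and at 1.51 and 1.29 RPM on dcr-1 RNAi (log2 fold change 0.23, SE 0.26, adjusted p = 0.517 by limma). As a share of microRNA RPM the 3p strand was at 0.0242% and 0.0222% on L4440 and at 0.0132% and 0.0150% on dcr-1 RNAi.

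The 22G-RNAs of Y47H10A.5 were at 652 and 585 RPM on L4440 and at 734 and 717 RPM on dcr-1 RNAi. This rise of 0.23 (SE 0.06, adjusted p = 0.0177 by limma) equals the median of all rows to within 0.02, and centred on the library median it was 0.03 (adjusted p = 0.895). The call was also lost without the L4440 replicate 2 library (0.15, adjusted p = 0.0561) and without either dcr-1 RNAi library (0.21 and 0.25, adjusted p = 0.218 and 0.0816). The ratio of 22G-RNAs to miR-243-3p went from 10.34 and 10.49 on L4440 to 28.7 and 23.6 on dcr-1 RNAi.

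Embryo libraries listed miR-243 but almost none of the 22G-RNAs. The labels name no pyrophosphohydrolase treatment for the embryos, while the adult libraries are those labelled with it, so developmental stage and a possible difference in treatment cannot be told apart by the labels. miR-243-3p was at 11.8 and 20.1 RPM in the embryo libraries, and the higher of these lay within the adult range of 18.8 to 23.1 RPM (log2 fold change -0.44, SE 0.20, adjusted p = 0.0746 by limma; 77.7% of rows called, median of all rows -0.67). Without embryo replicate 2 the value was -0.80 (adjusted p = 0.00104). miR-243-5p was at 3.56 and 0.89 RPM and overlapped with adults (-0.12, SE 0.35, adjusted p = 0.755 by limma), and was -0.76 (adjusted p = 0.0140) without embryo replicate 1. Rescaled to the microRNA total, both strands were called lower in embryos, at -1.17 for 3p (limma adjusted p = 8.23e-08) and -0.61 for 5p (adjusted p = 0.0239). In RPM 87.8% of 221 microRNA rows were called, 129 of them higher, and their median was 1.09. Among these rows miR-243-3p had rank 157 from the top. The 22G-RNAs of Y47H10A.5 were at 0.71 and 0.89 RPM, an estimated 10 and 14 reads, against 893, 870 and 926 RPM in adults. That was the lowest of 2091 WAGO class rows, and the row fell by 8.96 on the log2 scale (SE 0.07, adjusted p = 4.20e-10 by limma). MicroRNA rows took 50.4% to 53.5% of the listed RPM in embryos and 31.6% to 35.3% in adults, and 22G-RNA rows 41.2% to 43.1% and 57.4% to 60.7%. The same adult libraries had 52.9% to 55.8% in 22G-RNA rows beside rde-1(ne219), where the listed rows summed to more RPM. The miR-35 family, which is abundant in embryos, was higher in both embryo libraries for 7 of 8 members, the exception being miR-41-3p, which had 942 and 145 RPM against 202 to 359 RPM in adults. This comparison and that of rde-1(ne219) with wild type share their 3 wild-type libraries.

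**Figure D5:**
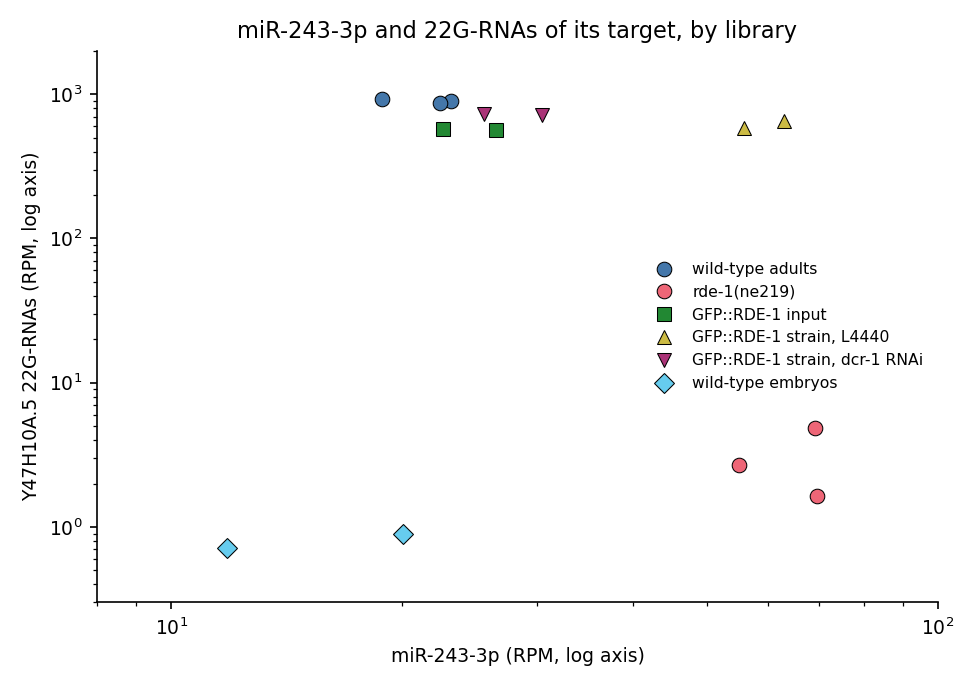
RPM of miR-243-3p (horizontal, log axis) against RPM of Y47H10A.5 22G-RNAs (vertical, log axis), each point a library of the groups in which 22G-RNA rows held 41.2% or more of the listed RPM. Libraries at 561 to 926 RPM of 22G-RNAs span 18.8 to 63.0 RPM of miR-243-3p, and the rde-1(ne219) and embryo libraries lie at 4.83 RPM of 22G-RNAs or less, at 55.0 to 69.6 and at 11.8 to 20.1 RPM of miR-243-3p.

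The share of miR-243-3p in microRNA RPM ranged as follows across all whole-animal and input libraries. The values come from separate tables and are given side by side without a test. Embryos were lowest, at 0.00345% to 0.00539%. The ALG-1 L4440 inputs (0.00904% to 0.0106%), wild-type adults (0.00924% to 0.0113%), ALG-2 L4440 inputs (0.0101% to 0.0116%), RDE-1 nrfl-1 RNAi inputs (0.00944% to 0.0127%) and RDE-1 inputs with no RNAi label (0.0107% to 0.0141%) overlapped in sequence, and the last also overlapped with dcr-1 RNAi (0.0132% to 0.0150%). The ALG-1 nrfl-1 RNAi inputs followed at 0.0187% to 0.0206% and the L4440 libraries of the RDE-1 strain at 0.0222% to 0.0242%. Next were the inputs on rde-1 RNAi of the ALG-1 strain (0.0242% to 0.0252%) and of the ALG-2 strain (0.0246% to 0.0272%), whose ranges overlapped; the L4440 libraries of the RDE-1 strain overlapped with the former and lay below the latter. The rde-1(ne219) libraries stood apart at the top, at 0.0302% to 0.0385%. Of the groups with intact rde-1 and L4440 food, that of the RDE-1 strain was above those of the ALG strains, so the level also varied among control groups.

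The microRNAs with the pattern nearest to miR-243-3p were sought next. Likeness was measured as the root mean square difference in log2 fold change over 7 comparisons among 170 microRNA rows tested in all of them. The nearest was miR-789-2-5p, at 2.00, which had 7.79 and 8.63 in RDE-1 co-IPs but 0.12 in rde-1(ne219) and -2.64 in the ALG-1 co-IP on L4440. Then came miR-238-5p (2.09), the other strand miR-243-5p (2.09), miR-84-3p (2.19) and miR-789-5p (2.44). miR-789-5p had 1.79 in rde-1(ne219), 1.32 in the ALG-1 strain inputs and 2.04 in the ALG-2 strain inputs. miR-240-5p, also among the 5 highest in RDE-1 co-IPs, went the other way in rde-1(ne219), at -2.81.

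The 22G-RNAs of Y47H10A.5 had no near neighbour among the rows that could be compared. A row had to pass the filter of 1 RPM in all 4 comparisons. Under nrfl-1 RNAi 95 WAGO class rows were tested, against 2098 in rde-1(ne219), so most rows could not be neighbours. Over 4 comparisons and 1040 rows of 22G-RNAs the most alike was WBGene00220185, listed among targets of 23H-RNAs, at a root mean square difference of 2.94, with a log2 fold change of -2.98 in rde-1(ne219). The next were retr-1 (2.98) and Y17D7C.3 (3.07, the same value in its 3 class rows), with -2.02 and -1.79 in rde-1(ne219). All stood far from the -7.87 of Y47H10A.5, which was the lowest of all rows in rde-1(ne219), so that any other row had to lie above it.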

How the data were processed

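Per the labels, the authors made the small RNA values with tinyRNA and custom Python scripts and deposited them as RPM in 8 tables, rounded to 2 decimals; the denominator, the genome build and the handling of multiply mapped reads are not given in the sources used here. The deposited mRNA signal values are normalized counts that are not whole numbers, made with fastp, STAR, RSEM and DESeq2 per the submitters' processing notes.

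Rows were taken by feature ID. Each of the 15 comparisons was fitted on all rows of a table with limma 3.58.1 in R 4.3.3 (empirical Bayes with a mean-variance trend) on log2(value + 1), over rows averaging 1 RPM, or 10 normalized counts, and more, so fold changes of low rows are understated. The 4 groups of the ALG-1 and of the ALG-2 L4440 and rde-1 RNAi tables were fitted together. Two-sided p-values took a Benjamini-Hochberg adjustment within a comparison, and rows were called below 0.05. The fit was tested on simulated data. Shares and ratios were compared by exact permutation, in 36 tests whose adjusted p was at least 0.36. Depth was estimated from the common step of values up to 2 RPM, on which 73.2% to 94.1% of them lay within 0.006 RPM; the rest did not, so count tests were not run. Estimated reads cover counting error only.

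Members, gene lists and comparisons were chosen with earlier results of these data known. Genes named beyond the members were the list of RNAi genes (at most 3 per direction), the 5 microRNA strands most enriched in RDE-1, the 5 most like miR-243-3p and those most like the 22G-RNAs. Alternatives were another pseudocount of 0.1, no filter, median centring, 3 rescalings, no trend, the replicate block and leaving out each library. In 3 columns the name gave the group but no single sample, and 1 feature with a blank cell was removed. A comparison of seeds was not made, since no mature sequences were used here.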

Additional observations from a re-analysis of the deposited data

Results flagged for a closer look

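On L4440 the co-IP against input of miR-243-3p went in opposite directions in the microRNA Argonautes, with every ALG-1 co-IP library above its inputs (log2 fold change 1.49) and every ALG-2 co-IP library below (-2.70). On rde-1 RNAi the strand again differed in sign, at 1.74 in ALG-1 and -2.56 in ALG-2. For miR-243-5p on rde-1 RNAi every ALG-1 co-IP library was above its inputs and every ALG-2 one below, at 0.37 in ALG-1, which did not pass the test and was -0.70 rescaled to the microRNA total (limma adjusted p = 0.00878), and -2.76 in ALG-2. The difference between the Argonautes was not tested, since the strains were measured in separate tables, and the sign in ALG-2 turns after rescaling to the total without microRNAs.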

How the results depend on the processing

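Of 548 refitted values of the members, 469 kept their direction and their side of the threshold; the cause of the other changes was not tested. Both strands and the 22G-RNAs in rde-1(ne219), miR-243-3p and miR-243-5p in both RDE-1 co-IPs, miR-243-3p in ALG-1 precipitates on rde-1 and on nrfl-1 RNAi, the Y47H10A.5 mRNA and the embryo 22G-RNAs kept both under every alternative run. Without 1 library each, log2 fold changes in these ranged from 1.46 to 1.65 for miR-243-3p and from -8.17 to -7.60 for the 22G-RNAs in rde-1(ne219), and from 2.51 to 2.67 for the mRNA.

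The 22G-RNAs of Y47H10A.5 under RDE-1 co-IP on nrfl-1 RNAi went from -0.77 to 0.49 with median centring, 0.97 rescaled to the 22G-RNA total and -0.63 rescaled to the microRNA total (adjusted p = 0.0645), and from -0.86 to -0.60 without 1 library. On dcr-1 RNAi they were 0.23 with no filter (adjusted p = 0.148) or without the trend (adjusted p = 0.223), 0.029 centred, -0.024 rescaled to the total without microRNAs and 0.026 rescaled to the 22G-RNA total, and 0.15 to 0.31 without 1 library. In ALG-1 precipitates they were 1.95 (L4440), 2.73 (rde-1 RNAi) and 1.00 (nrfl-1 RNAi) centred, 2.53, 1.66 and 0.93 rescaled to the total without microRNAs, 2.59, 2.22 and 1.63 rescaled to the 22G-RNA total, and -0.51 on rde-1 RNAi rescaled to the microRNA total. Without 1 library they ranged from -1.04 to -0.44 on L4440 and from -0.22 to 0.32 on rde-1 RNAi.

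For miR-243-3p, dcr-1 RNAi gave -1.06 without the trend (adjusted p = 0.0956), and the ALG-1 co-IP on L4440 0.41 rescaled to the microRNA total (adjusted p = 0.101). In ALG-2 co-IPs it was -0.00059 (L4440) and 0.13 (rde-1 RNAi) centred, and 2.40 and 1.92 rescaled to the total without microRNAs. That rescaling also turned the differences in enrichment, to -0.94 for miR-243-3p, -0.59 for miR-243-5p and -0.87 for the 22G-RNAs in ALG-1 and -0.47 for miR-243-3p in ALG-2, and the 22G-RNA total gave -0.36 for the 22G-RNAs in ALG-1. ALG-1 inputs on rde-1 RNAi passed the threshold at 1.37 centred, and at 1.27 without the trend or with only the pair of groups, and ranged from 1.19 to 1.34 without 1 library. ALG-2 inputs missed it at 1.33 with a pseudocount of 0.1 (adjusted p = 0.0587) and at 1.22 rescaled to the total without microRNAs, and ranged from 1.18 to 1.44. In embryos it was 0.23 centred, -1.17 rescaled to the microRNA total, and -0.80 to -0.087 without 1 library.

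For miR-243-5p, rescaling to the microRNA total gave -0.81 and -0.70 for ALG-1 co-IP on L4440 and on rde-1 RNAi, against 2.82 and 3.06 centred and 4.28 and 3.69 rescaled to the total without microRNAs, with 2.49 and 3.25 under nrfl-1 RNAi; leaving out 1 library gave -0.059 to 0.33 on L4440. In ALG-2 it was 0.36 on L4440 centred and 1.58 and 1.04 rescaled to the total without microRNAs; in embryos it was 0.55 centred, 0.11 with that rescaling, -0.61 rescaled to the microRNA total (adjusted p = 0.0239) and -0.76 to 0.51 without 1 library.

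The replicate numbers gave no clear sign of pairing, since no comparison with 3 shared numbers had every correlation above 0.1. Where both groups had 2 libraries, the correlations were the same value by construction and could not decide. Whether libraries with the same number belong together was thus not settled. With the replicate block, miR-243-3p in embryos was -0.53 (adjusted p = 0.0394), the called mRNAs went from 41 to 89 and the called rows of the ALG-2 inputs from 28 to 58; it changed no other call of a member. Crossing the numbers of the ALG-2 libraries on L4440, chosen after seeing the data, gave 3161 called rows against 3137 as labelled. No paired analysis was possible for dcr-1 RNAi and for RDE-1 on nrfl-1 RNAi because their columns do not carry the label numbers in both groups.

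Counts of called rows over whole tables differed from the main count by more than 1.5 times in these cases. RDE-1 co-IPs went from 8520 to 3210 centred, and on nrfl-1 RNAi from 2819 to 9550 with no filter, 1564 centred and 4822 rescaled to the total without microRNAs. dcr-1 RNAi went from 1632 to 9 without the trend, 31 with no filter, 798 centred, 5208 and 670 rescaled to the microRNA total and to the total without microRNAs, 94 without L4440 replicate 1, and 111 and 878 without either dcr-1 RNAi library. In ALG-1 (L4440, rde-1 RNAi, then nrfl-1 RNAi) they went from 3434, 3433 and 3701 to 10944, 10141 and 12929 with no filter and to 940, 1754 and 1540 rescaled to the total without microRNAs, the last also to 2455 centred. In ALG-2 (L4440, then rde-1 RNAi) the counts went from 3170 and 3172 to 9938 and 10559 with no filter and to 595 and 1161 with that rescaling. Over all alternatives, the 10 and 28 calls of the ALG-1 and ALG-2 inputs ranged from 2 to 22 and from 4 to 200, the 12 and 10 calls of the differences in enrichment from 0 to 949 and from 0 to 16, and the 41 called mRNAs from 13 to 89.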
